A study of Caenorhabditis elegans with 12 samples.

Results

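The genes described here are the cytosolic heat shock genes of Caenorhabditis elegans: the transcription factor hsf-1, the chaperones hsp-70 and hsp-110, and the small heat shock genes hsp-43, hsp-16.1, hsp-16.2, hsp-16.41, hsp-16.48, hsp-12.6 and hsp-17. They were chosen by gene symbol, with the transcript values of this comparison already known and hsp-70 known to be among the largest rises, so the differences between groups below are a description of these genes. Where the text says which of them passed the test over all genes, that too is a description and supports nothing about them. The 10 symbols map to 12 gene identifiers of the 46726 in the table, because hsp-16.1 and hsp-16.48 each name a pair of neighbouring copies. RefSeq calls the second copies hsp-16.11 (WBGene00002017, T27E4.2) and hsp-16.49 (WBGene00002020, T27E4.9), and these names are used here.

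N2 worms, the Bristol wild type, were grown as a synchronous liquid culture on bacteria at 20 °C, at about 1 worm per µL. At 6 h after hatching the culture was divided into 6. Treated cultures (3) received a mixture of the ascarosides ascr#8, ascr#3 and ascr#2, pheromones that worms secrete, dissolved in ethanol, and control cultures (3) the ethanol without them, and RNA of whole late L1 larvae was taken after 3 h. The labels give the total ascaroside concentration as 5 µM, while the methods of the study give a lower one. Both groups carry the intact daf-22 gene, whose enzyme is needed to make ascarosides, so the controls may make their own. The amount in the control cultures is not given in the sources used here. All 6 cultures came from one population, so the spread between them covers differences that arose after the split only. The 6 daf-22(ok693) libraries were not analysed here.

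Values are normalized counts, the reads on a gene divided by a size factor for its library. The libraries held between 11133417 (treated library 3) and 19116807 (treated library 1) reads on genes. Libraries are numbered as in the table, 1 to 3 treated and 4 to 6 control, and these numbers are not the replicate numbers of the labels. As a check of stage, the summed level of the early larval timing genes lin-14, lin-28 and hbl-1 was 3591 to 3759 normalized counts in treated and 2817 to 3544 in control libraries. The 6 vitellogenin genes, which adults express, summed to 47.2 to 54.2 in treated and 57.6 to 63.8 in control libraries. Of the 4 sperm genes 2 were at 0 throughout, and the list summed to 0.843 to 3.91 in treated libraries and to 0 in the controls. The 4 early embryo genes summed to 0.951 to 5.06 against 3.11 to 7.46 (1 of them at 0 throughout), and the 2 dauer collagen genes to 0.951 to 8.43 against 0.778 to 3.36. The timing list (higher with ascarosides) and the vitellogenin list (lower) did not overlap between the groups, beside 9.78% and 9.53% of single genes tested. The sperm list did not overlap either, but it lies at the floor: its lowest treated sum, 0.843, is the value of 1 read in treated library 1. The part of these lists in the results below was not tested.

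When proteins unfold, HSF-1 is released from its chaperone partners, forms trimers and binds heat shock elements in front of chaperone genes. HSP70 proteins bind exposed stretches of unfolded clients in cycles driven by ATP, and HSP110 proteins exchange their nucleotide and help to pull aggregates apart. Small heat shock proteins need no ATP and hold unfolded proteins in a state from which they can be refolded. In C. elegans the hsp-16 genes named above lie in divergently transcribed pairs. They are textbook reporters of heat shock, near silent in unstressed worms. hsp-12.6 is known as a target of DAF-16, the transcription factor of the insulin pathway.

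The control cultures give the level after the split and 3 h with ethanol, without added ascarosides. No N2 culture without ethanol was part of the comparison, so the level in undisturbed larvae is not known. Per kb of exon, with lengths from the WBcel235 annotation, hsp-16.41 and hsp-16.2 were the highest of these genes, with 7537 ± 2394 and 7514 ± 2503 normalized counts per kb (SD, n = 3). In every control library each of them ranked within the first 275 of 14803 genes by level per kb. Their values lay below those of the constitutive chaperones hsp-1, the main cytosolic HSP70 (21939 ± 2831), and hsp-90 (21792 ± 1643). Next came hsp-110 with 3785 ± 761, hsp-17 with 3412 ± 974 and hsp-16.11 with 2832 ± 826 normalized counts per kb, whose ranges over the control libraries overlap. hsp-110 stood above hsp-16.11 in each control library, while hsp-17 stood below hsp-16.11 in library 4 and above it in libraries 5 and 6. After them stood hsp-43 (524 ± 90.6), hsp-70 (346 ± 186) and hsf-1 (195 ± 33.4), of which each neighbouring pair overlapped. The lowest was hsp-12.6 with 19.8 ± 13.1. The median over the 14803 genes was 141.7 normalized counts per kb. Transcripts counted on hsp-16.41, hsp-16.2 and hsp-16.11 were thus abundant in larvae that had received ethanol alone. Almost no reads were counted on hsp-16.1, hsp-16.48 and hsp-16.49, whose levels are uncertain for the reason given below.

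**Figure D1:**
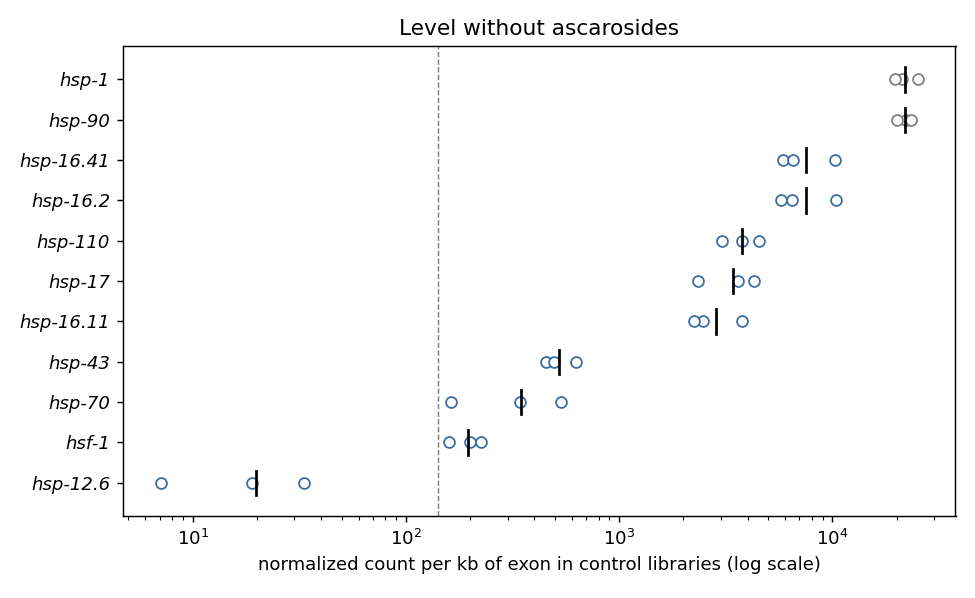
Level of each gene in the 3 control libraries (circles, grey for the constitutive chaperones hsp-1 and hsp-90) with the mean (black line), as normalized counts per kb of exon on a log axis. The dashed line is the median of 14803 genes, 141.7, and hsp-12.6 is the only heat shock gene shown that stands below it.

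The copied hsp-16 genes were measured unevenly. hsp-16.1 itself (WBGene00002015) had 0, 3 and 3 reads in treated libraries 1 to 3 and 1, 0 and 0 in control libraries 4 to 6. hsp-16.48 (WBGene00002019) had 3, 0 and 1 reads against 0, 0 and 1, and hsp-16.49 7, 3 and 1 against 2, 0 and 0. With at most 7 reads counted in a library, no difference was detectable for these 3 genes, and they do not enter the test. By contrast hsp-16.11 had between 953 and 2857 reads. It has 476 bases of exon against 438 for hsp-16.1. Alignments that were not unique were set aside in the table and made up 31.6% to 40.4% of the column totals. Whether a read was entered there once or once for each place is not given, so the share of reads is not known. How many of these alignments came from the copied hsp-16 genes is not known either, so the levels of these copies, hsp-16.11 included, are uncertain.

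The question put to these genes is whether 3 h of ascarosides changed them. Of the 9 genes that averaged 5 normalized counts or more, limma with Benjamini-Hochberg adjustment over all 14965 genes tested called 5 higher with ascarosides at an adjusted p under 0.05, beside 2.06% of all genes, and 0 lower, beside 1.46%. At an unadjusted p under 0.05 limma gave 6 higher and 1 lower (hsp-17), beside 1204 and 1067 of all 14965 genes. edgeR and DESeq2 also called 0 lower. The 5 were hsp-70, hsp-43, hsp-110, hsp-16.2 and hsp-16.11. In 3 of the 9, hsp-70, hsp-43 and hsp-110, the treated values lay above all control values, beside 9.78% of all genes, and in 0 below them, beside 9.53%. As these genes were listed with the values known, the shares are given as background and nothing is read from them. The number called changed with single libraries: it was 2 without treated library 1, 1 without treated library 2 and 2 without control library 6, against 7 (6 higher and 1 lower) without control library 4. In these fits calls over all genes moved the same way, from 527 with all libraries to 248, 217 and 333, against 1440. Without treated library 3 the number of heat shock genes called stayed at 5 while calls over all genes fell to 330. Without control library 5 these numbers were 6 and 562. In whole worms, more RNA per cell and more cells of a type that expresses a gene cannot be told apart.

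hsp-70 (WBGene00002026, C12C8.1, chromosome I) encodes the heat-inducible cytosolic HSP70. It had 3211, 3939 and 1938 normalized counts in treated libraries 1, 2 and 3 and 1097, 705 and 334 in control libraries 4, 5 and 6. The groups did not overlap, and the libraries within a group differed by 2.03-fold (treated) and 3.29-fold (control). The log2 fold change was 2.19 (standard error 0.302, 95% interval 1.55 to 2.82). Through eBayes, the error and the interval draw on the spread of other genes, not on the 6 values of hsp-70 alone. Per kb of exon hsp-70 stood below hsp-43 in each control library (533, 343 and 162 against 626, 452 and 495 in libraries 4, 5 and 6). It stood above hsp-43 in each treated library (1561, 1915 and 942 against 904, 988 and 747 in libraries 1, 2 and 3). Its rank among 14803 genes was between 2671 and 6929 in the control and between 834 and 1543 in the treated libraries. With one library left out its log2 fold change lay between 1.72 and 2.58 and it was called each time. It was not called with robust eBayes or without the trend, and without the trend only 1 of all 14965 genes was called.

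**Figure D2:**
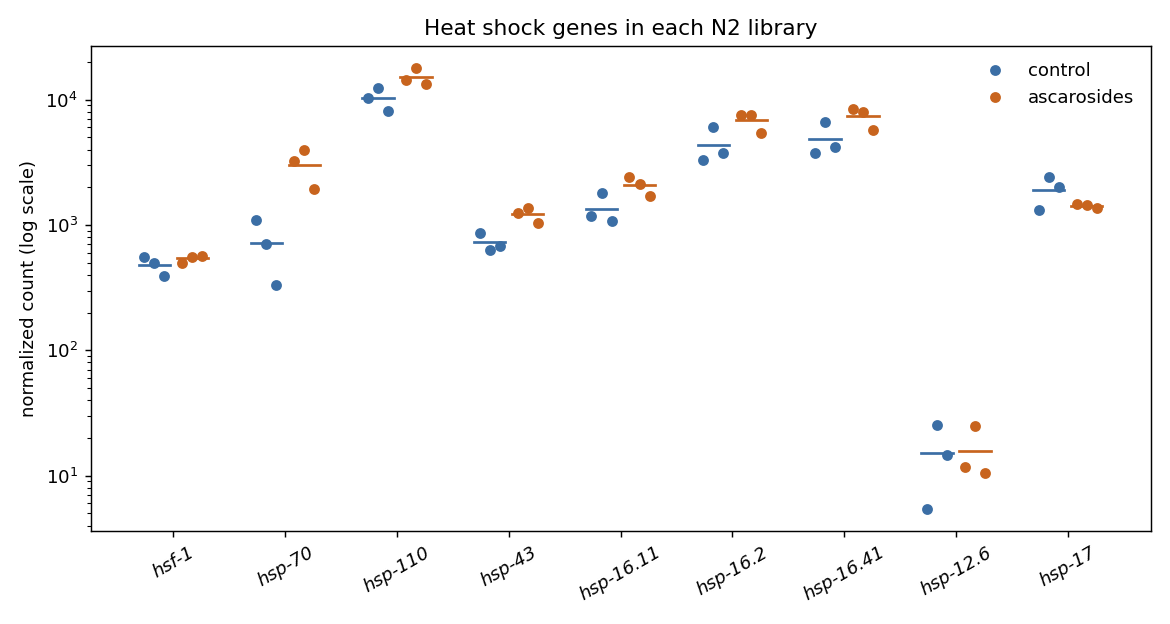
Normalized counts on a log axis of the 9 tested heat shock genes in the 3 control (blue) and 3 ascaroside (orange) libraries, with the group mean as a line. The groups stand apart for hsp-70, hsp-110 and hsp-43, while in the hsp-16 genes 1 control library reaches into the treated range.

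hsp-110 (WBGene00016250, C30C11.4, chromosome III) encodes the HSP110 partner of HSP70 and was the most abundant of these genes by reads. It had 14232, 17894 and 13452 normalized counts in treated libraries 1, 2 and 3 and 10217, 12288 and 8175 in control libraries 4, 5 and 6. The lowest treated value stood above the highest control value by less than the spread within either group. The log2 fold change was 0.58 (standard error 0.151, 95% interval 0.26 to 0.90). It was no longer called without treated library 1, 2 or 3 or without control library 6.

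hsp-43 (WBGene00002024, C14F11.5, chromosome X) encodes a protein with the alpha-crystallin domain of the small heat shock family. It had 1251, 1368 and 1035 normalized counts in treated libraries 1, 2 and 3 and 867, 626 and 685 in control libraries 4, 5 and 6. The groups did not overlap. The log2 fold change was 0.75 (standard error 0.137, 95% interval 0.46 to 1.04). The call was lost without treated library 2 and without the trend in eBayes, where 1 of all 14965 genes was called.

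Among the genes described here, hsp-16.2, hsp-16.41 and hsp-16.11, all on chromosome V, were higher by similar amounts. RefSeq also gives hsp-16 names to 2 genes of the other lists, F08H9.3 (hsp-16.20) and F08H9.4 (hsp-16.21), on the same chromosome. Their log2 fold changes were 0.02 and 0.32 (standard errors 0.373 and 0.351). hsp-16.2 (WBGene00002016, Y46H3A.3) had 7475, 7598 and 5455 normalized counts in treated libraries 1, 2 and 3 and 3310, 5997 and 3722 in control libraries 4, 5 and 6. Its log2 fold change was 0.69 (standard error 0.179, 95% interval 0.31 to 1.07). hsp-16.41 (WBGene00002018, Y46H3A.2), which is transcribed away from hsp-16.2 on the other strand, had 8364, 7954 and 5771 normalized counts in treated and 3734, 6576 and 4162 in control libraries. The log2 fold change of hsp-16.41 was 0.64 (standard error 0.178, 95% interval 0.26 to 1.01), and it was not called. hsp-16.11 had 2408, 2113 and 1699 normalized counts in treated and 1179, 1797 and 1067 in control libraries, a log2 fold change of 0.64 (standard error 0.166, 95% interval 0.29 to 0.99). In each of the 3 genes control library 5 stood above treated library 3, so the groups overlapped. That one gene of the pair was called and the other was not says nothing about a difference between them, which was not tested. hsp-16.41 was called without control library 5 (log2 fold change 0.88), without treated library 3 (0.80) and without control library 4 (0.47). It was also called with no filter on the mean and under upper-quartile scaling, and in no other setting. Neither hsp-16.2 nor hsp-16.11 was called without treated library 1, treated library 2 or control library 6, and edgeR and DESeq2 on the recovered reads did not call hsp-16.2.

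The ratio within the divergent pair varied little between libraries. hsp-16.2 had 0.894, 0.955 and 0.945 times the normalized counts of hsp-16.41 in treated libraries 1, 2 and 3 and 0.887, 0.912 and 0.894 times in control libraries 4, 5 and 6. Over the same libraries the level of hsp-16.2 itself ranged from 3310 to 7598. The ratio of hsp-16.11 to hsp-16.2, which lie apart on the chromosome, ranged more widely, from 0.278 to 0.356. These ratios share their library and size factor, so differences of depth cancel in them.

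**Figure D3:**
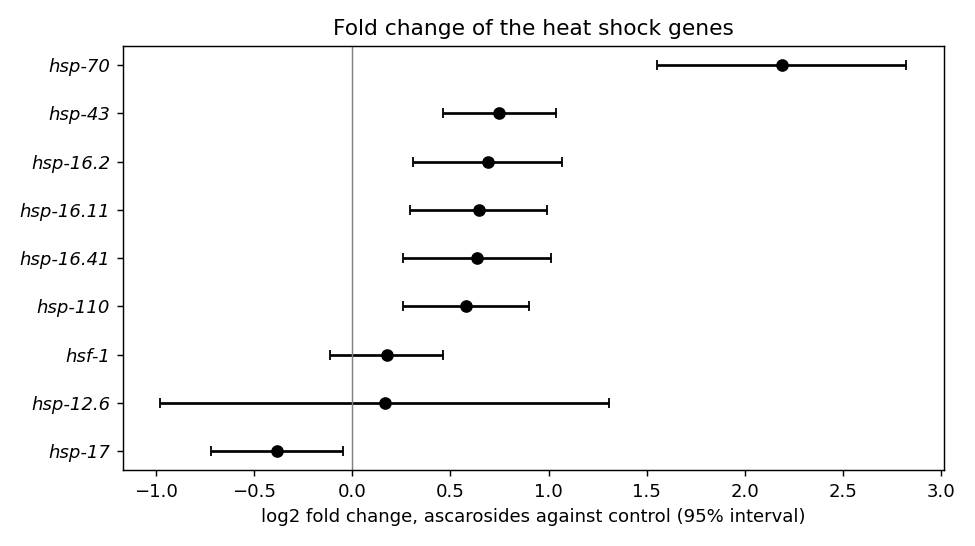
Log2 fold change of the 9 tested heat shock genes with its 95% interval from limma, moderated by eBayes. hsp-70 stands at 2.19, the next 5 genes lie between 0.58 and 0.75, and hsp-17 is below 0 at -0.38.

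hsp-17 (WBGene00002021, F52E1.7, chromosome V), another small heat shock gene, went the other way. It had 1464, 1439 and 1363 normalized counts in treated libraries 1, 2 and 3 and 1319, 2392 and 2021 in control libraries 4, 5 and 6. The 3 treated values lay close together while control library 4 stood below all of them, so the groups overlapped. The log2 fold change was -0.38 (standard error 0.160, 95% interval -0.72 to -0.05), and it was not called. Without control library 4 it was -0.63 and was called lower, in a fit that called 657 of 14998 genes lower. On the opposite strand the annotated gene F52E1.14 shares 73 bases with its exons, and whether counting used the strand is not given in the sources used here.

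hsf-1 (WBGene00002004, Y53C10A.12, chromosome I), the transcription factor, had 498, 555 and 568 normalized counts in treated libraries 1, 2 and 3 and 558, 497 and 394 in control libraries 4, 5 and 6. The groups overlapped, and the log2 fold change was 0.17 (standard error 0.137, 95% interval -0.12 to 0.46). An amount of hsf-1 transcript does not report the activity of the protein, which is set after translation. hsp-12.6 (WBGene00002013, F38E11.2, chromosome IV) had 11.8, 24.7 and 10.4 normalized counts in treated and 5.45, 25.6 and 14.6 in control libraries, from 7 to 26 reads in a library. Its log2 fold change was 0.17 (standard error 0.543, 95% interval -0.98 to 1.31), an interval that includes both no change and a change of the size seen in the hsp-16 genes.

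The libraries did not rank alike for all genes. Treated library 3 was the lowest treated library for 8 of the 9 tested genes (all but hsf-1), as it was for 33.4% of all genes tested and for 32 of the 51 other chaperone genes described below. It was also the library with the fewest reads on genes, whose part was not tested. Control library 5 was the highest control library for 6 of the 9 (hsp-110, hsp-16.11, hsp-16.2, hsp-16.41, hsp-12.6 and hsp-17), as it was for 36.1% of all genes and 31 of the 51 other chaperones. hsp-70 and hsf-1 ran in another order among the controls, with library 4 the highest and library 6 the lowest, and library 6 was also the lowest for hsp-110 and hsp-16.11. hsp-43 was also highest in library 4 but lowest in library 5. Library 4, the highest control for hsp-70, was the lowest for hsp-16.2 and hsp-16.41.

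**Figure D4:**
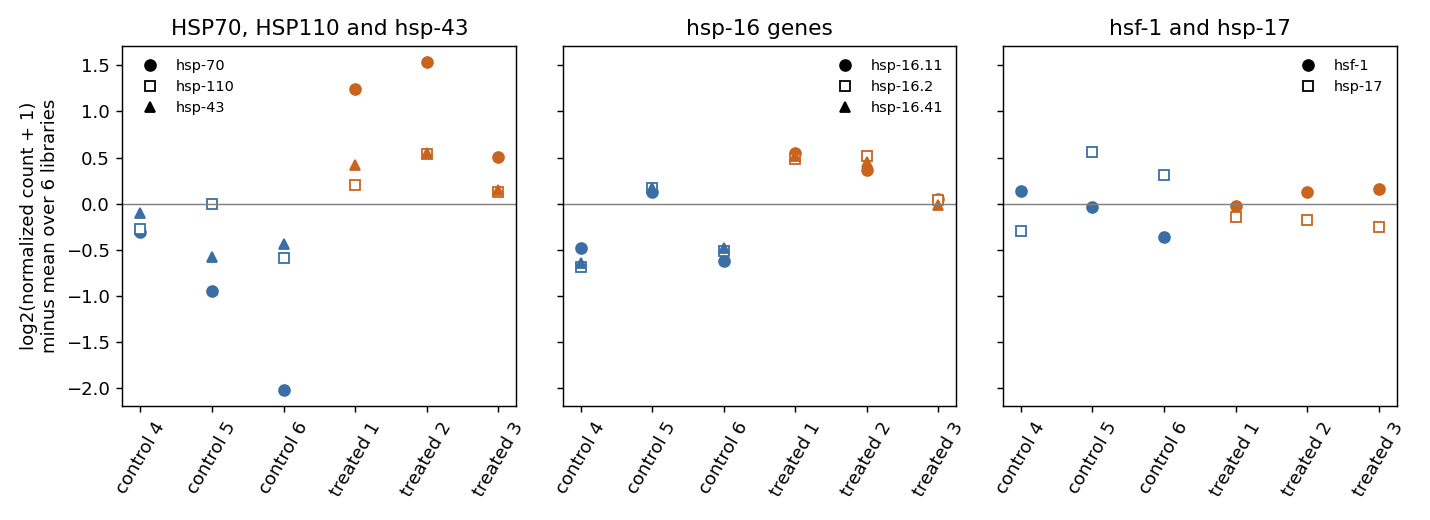
Log2(normalized count + 1) of 8 of the genes (hsp-12.6 is not drawn) in each library minus its mean over the 6 libraries, with control libraries in blue and treated libraries in orange. hsp-70 runs from 1.53 in treated library 2 to -2.02 in control library 6, whereas the hsp-16 genes peak among the controls in library 5.

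The genes whose pattern over the 6 libraries was most like that of hsp-70, by Pearson's r of log2(normalized count + 1) among 10873 genes with a mean of at least 50, were flp-21, an FMRFamide-like neuropeptide gene (0.993), F41E6.5 (0.987), acl-4, an acyltransferase gene (0.986), nhr-17, a nuclear hormone receptor gene (0.985), and ttr-39, a transthyretin-related gene (0.985). Of the other 8 tested heat shock genes described above, hsp-43 had 0.941 (place 115) and hsp-110 0.911 (place 262). Among the other chaperones, sip-1 (0.952, place 81) and hsp-6 (0.946, place 95) stood before hsp-43, and F44E5.4 (0.920, place 218) stood before hsp-110. hsp-16.11 (0.810), hsp-16.2 (0.732), hsf-1 (0.722) and hsp-16.41 (0.718) were less alike, and hsp-17 had -0.693. hsp-12.6 fell below the mean of 50 and was not compared. With 6 libraries that share one contrast such values are a description only.

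The other chaperone genes were taken from 7 lists by family. Of 51 tested genes, 2 were called higher at an adjusted p under 0.05, beside 2.06% of all genes, and 0 lower, beside 1.46%. The share called at this threshold was near that of all genes, and edgeR and DESeq2 also called 0 lower. At an unadjusted p under 0.05 limma gave 5 above and 8 below, beside 1204 above and 1067 below of all 14965 genes. The 2 were the small heat shock genes sip-1 and hsp-12.2. sip-1, a small heat shock gene expressed in embryos, had 550, 586 and 515 normalized counts in treated and 351, 357 and 316 in control libraries. It rose by 0.69 on the log2 scale (adjusted p = 0.00319 from limma, standard error 0.123). It was called under all alternatives but eBayes without trend, where 1 of all 14965 genes was called. hsp-12.2, a small heat shock gene that does not respond to heat, had 2368, 2420 and 2241 against 1720, 1799 and 1897 normalized counts. Its log2 fold change was 0.38 (standard error 0.102), with an adjusted p of 0.0499 in limma that is at the threshold, and without any one library other than control library 4 it was not called. Over the 8 genes of this list the median log2 fold change was 0.18, beside 0.0019 over all genes tested, and it was 0.09 without treated library 1. The remaining 6 had log2 fold changes of -0.08 (hsp-12.3), 0.02 (F08H9.3, hsp-16.20 in RefSeq), 0.03 (ZK1128.7), 0.14 (hsp-25), 0.22 (hsp-12.1) and 0.32 (F08H9.4, hsp-16.21 in RefSeq).

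Of the 5 other HSP70-type genes 0 were called (0 by edgeR or DESeq2), and their median log2 fold change was 0.24, or 0.09 without control library 4. Of them 1 was higher at an unadjusted p under 0.05 from limma, beside 1204 of all 14965 genes. F44E5.4 and F44E5.5 are a divergent pair of heat-inducible HSP70 genes, whose similar sequences leave the split of reads between them uncertain. F44E5.4 had 1209, 1284 and 866 normalized counts in treated and 888, 907 and 570 in control libraries, a difference of 0.52 on the log2 scale (adjusted p = 0.129 from limma, standard error 0.171). It was called without control library 4 or without control library 5, fits that called 1440 and 562 of all genes, against 527 with all libraries. F44E5.5 had 308, 337 and 306 against 173, 372 and 211 normalized counts, a difference of 0.41 on the log2 scale (adjusted p = 0.374 from limma, standard error 0.208). F44E5.5 was called higher without control library 5. The constitutive hsp-1 had a log2 fold change of -0.12 (95% interval -0.46 to 0.21), F11F1.1 one of 0.24 and stc-1 one of -0.16. The log2 fold change of hsp-70 was 2.19, a size known when the genes were chosen, and its difference from these genes was not tested.

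The chaperonin CCT folds actin and tubulin, and prefoldin hands these clients to it. All 14 of their genes had log2 fold changes below 0, from -0.33 to -0.01, although pfd-4 and pfd-5 were above 0 under upper-quartile scaling and without treated library 3 or control library 5, and pfd-5 without control library 6. The median was -0.23, beside 0.0019 over all genes tested. Under upper-quartile scaling it was -0.13, beside 0.11 over all genes. Of the 14, 0 were called (edgeR and DESeq2 also called 0). The unadjusted p from limma was under 0.05 for 6, all below 0, beside 1067 below 0 of all 14965 genes. Over all genes tested, 7433 of 14965 were below 0. In 6 of the 8 CCT genes and in pfd-3 the treated values lay below all control values, beside 9.53% of all genes. cct-2, for example, had 4675, 5441 and 4635 normalized counts in treated and 6059, 6378 and 5935 in control libraries, a difference of -0.32 on the log2 scale (adjusted p = 0.138 from limma, standard error 0.109). Under quantile normalization cct-1, cct-2, cct-5, cct-7 and cct-8 were called lower, so that the 51 genes then gave 1 higher and 5 lower. Without control library 4, cct-2 and pfd-3 and pfd-6 were called lower, in a fit that called 657 of 14998 genes lower, against 218 with all libraries. HSP90 and its co-chaperones (9 genes) had a median of -0.09, the HSP70 co-chaperones (6) one of -0.003 and the partners of HSF-1 (3 tested: hsb-1, ddl-1 and ddl-2) one of -0.21, with 0 called in each. The last of these medians was -0.03 when control library 6 was left out, -0.10 without treated library 2 and -0.32 without treated library 1. Without control library 4, sti-1, daf-41 and C01G10.8 of the HSP90 list and bag-1 of the HSP70 co-chaperones were called lower. Without control library 5, dnj-13 and unc-23 of the HSP70 co-chaperones were called higher, in a fit that called 346 of 14954 genes higher. The 6 chaperones of the endoplasmic reticulum and mitochondria had a median of -0.03, which like those of the HSP90 and HSP70 co-chaperone lists changed sign in some alternatives, and the mitochondrial HSP70 gene hsp-6 the largest value, 0.41 (adjusted p = 0.104 from limma, standard error 0.128), which DESeq2 called.

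**Figure D5:**
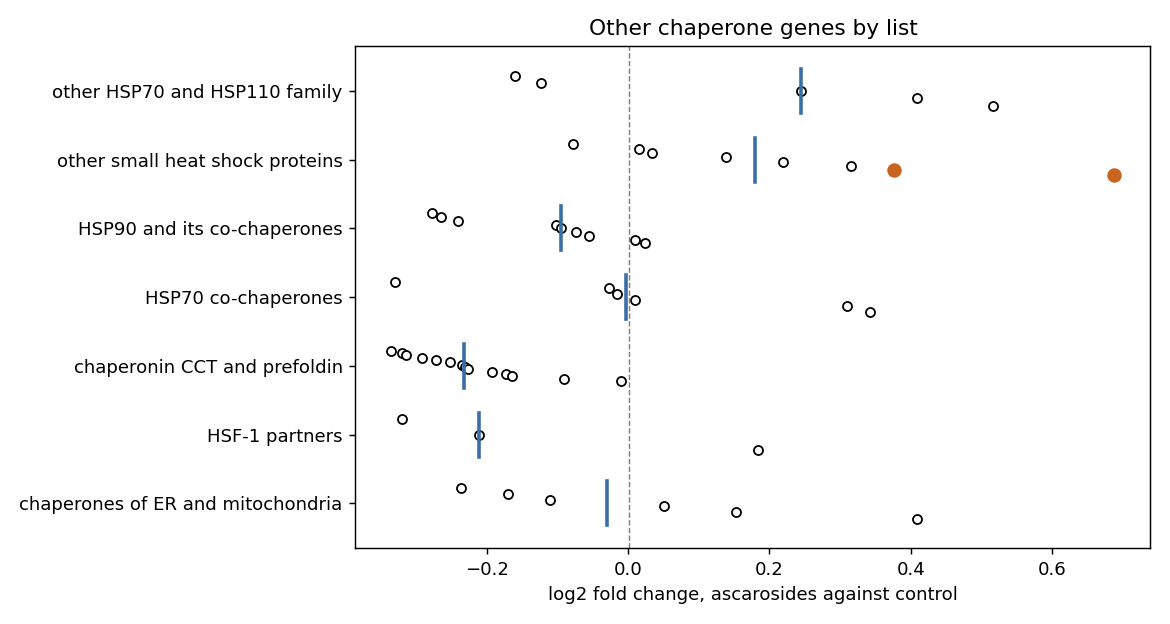
Log2 fold change of each of 51 tested chaperone genes by list, with orange points for the 2 genes called at an adjusted p under 0.05 (sip-1 and hsp-12.2) and blue bars for list medians. The dashed line is the median of all genes, 0.0019. Every CCT and prefoldin gene lies to its left at this scaling. Under upper-quartile scaling pfd-4 and pfd-5 were above 0, while the median of all genes moved to 0.11.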

How the data were processed

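RNA-seq libraries of polyadenylated RNA (50 nt single reads) from 3 treated and 3 control N2 cultures were analysed. Per the methods and labels, the authors checked reads with ShortRead, aligned them with tophat2 and used HTSeq-count for counting. The deposited values are a normalized signal, in which the reads of a gene are scaled by 1 factor for each library, read here as the DESeq size factor. The methods name the build WBcel215 and the labels WBcel235, so no coordinates are given. Versions and strand setting are not given in the sources used here. Column names give the group of a library, not its replicate number, and 0 other columns held values. The 5 lines outside genes, 33.1% to 41.8% of the column totals, were left out. Reads were recovered from the steps of each column (100% whole within 0.001).

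Gene symbols came from a gene name table, completed from RefSeq by sequence name, and exon lengths from the WBcel235 annotation. limma 3.58.1 in R 4.3.3 (lmFit and trended eBayes, two-sided, prior degrees of freedom 12.9) was run on log2(normalized count + 1) for the 14965 genes that averaged 5 or more, with Benjamini-Hochberg adjustment over them. Fold changes are on this scale, which understates changes of low genes. Called means an adjusted p under 0.05. Standard errors, intervals and p-values of limma rest on variances moderated by eBayes. These combine a gene's own spread between cultures of one population with the spread of genes of like level. Members and lists were chosen with earlier results of these data known. hsp-16.11 and hsp-16.49, listed among the other small heat shock genes at first, were moved to the members because the gene name table gives them member symbols. Named were all members, the called genes of the lists, all genes of the lists of other HSP70-type and small heat shock genes, and the 5 genes most like hsp-70. Other list genes (hsp-6, CCT and prefoldin subunits, and those called only in an alternative) were named after their values were seen.

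Other settings tried were a pseudocount of 0.5 or 5, a minimum mean of 0 or 50, upper-quartile scaling or quantile normalization, robust eBayes or none of its trend, count models (DESeq2 1.42.0 and edgeR 4.0.16) fitted to recovered reads, and each library left out in turn. The scripts were tested on simulated counts. Promoter and protein sequences were not analysed here. Tables and plots used Python 3.11.15, pandas 2.3.3, numpy 2.4.6 and matplotlib 3.10.9.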

Additional observations from a re-analysis of the deposited data

How the results depend on the processing

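Sequence comparisons of promoters and proteins that were planned (heat shock elements, identity of copies) were not run. No paired analysis was possible because column names hold no label replicate number, and a fit with replicate block was left out. The directions of hsf-1, hsp-70, hsp-110, hsp-43, hsp-16.11, hsp-16.2, hsp-16.41 and hsp-17 held in all alternatives. That of hsp-12.6 did not: its log2 fold change ranged from -0.39 without control library 4 to 0.63 without control library 5, and was also below 0 without treated library 2 (-0.20).

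The number of heat shock genes called, 5 of 9, was 2 under quantile normalization (hsp-43 and hsp-70), 2 with robust eBayes (hsp-43 and hsp-110) and 0 without the trend. It was 6, with hsp-16.41 added, under upper-quartile scaling and with no filter, where 12 identifiers were tested. Without the trend 1 of all 14965 genes was called, and 6 of the 9 were higher at an unadjusted p under 0.05. edgeR and DESeq2 each called 4. With one library left out the number of heat shock genes called ranged from 1 to 7, and the number over all genes from 217 to 1440. Of the 51 other chaperones, 2 called, there were 6 under quantile normalization, 1 with a pseudocount of 0.5, no filter, upper-quartile scaling, robust eBayes or edgeR, and 0 without the trend (unadjusted p under 0.05: 3 above and 4 below). With one library left out there were 1 to 11, the latter without control library 4 (4 higher and 7 lower). That fit called 783 higher and 657 lower of 14998 genes. Upper-quartile scaling moved the median of all genes to 0.11 and the calls over all genes to 416 higher and 143 lower, against 309 and 218. Directions of list genes near 0 (pfd-4, pfd-5, hsp-12.3, F08H9.3, ZK1128.7 and hsp-12.1 among them) changed in some alternatives. The causes were not tested.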
